A study of Mus musculus with 6 samples.

Results

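The genes described here are the matrix metalloproteinases (Mmp), the ADAMTS proteases (Adamts), the ADAMTS-like proteins (Adamtsl) and the tissue inhibitors of metalloproteinases (Timp), chosen by symbol alone. They make up 51 of the 22026 genes listed, of which 23 are Mmp, 19 Adamts, 5 Adamtsl and 4 Timp genes. RNAseq was carried out on choroid endothelial cells (ECs), the cells that line the fenestrated capillaries beneath the retinal pigment epithelium (RPE), from 129/B6 mice at postnatal day 5 (P5) and postnatal day 30 (P30). ECs were labelled in the living animal with an antibody to VE-Cadherin, and VE-Cadherin+ cells were sorted from digested RPE/choroid. There were 3 isolations per age, each pooling 7 animals, and no transgene or drug treatment was named for them. P5 mice were given a lower dose of the antibody than P30 mice and were anaesthetized by hypothermia, so handling cannot be told apart from age. The comparison asks how the level of each protease and inhibitor in choroid ECs differed before and after the weeks in which vision matures.

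Mmp genes encode zinc-dependent endopeptidases that cut collagens, laminins and other matrix proteins, and they are made as inactive precursors, some secreted and some held at the cell surface. ADAMTS proteases are secreted, carry thrombospondin repeats that hold them to the matrix, and include enzymes for versican-type proteoglycans, procollagens and von Willebrand factor, whereas ADAMTS-like proteins have the repeats but no catalytic domain. Timp proteins bind the active site of these enzymes. Timp3 differs from the other inhibitors in being anchored in the matrix, is a component of Bruch's membrane, inhibits several ADAMTS proteases, and is the gene mutated in Sorsby fundus dystrophy, an inherited disease of the macula.

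Levels are in FPKM (fragments per kilobase of transcript, scaled between libraries by upper quartile normalization with a GC correction). They are per length and so can be set side by side between genes. The read depth of each isolation was not given with the FPKM, so the counting error of a single value is not known. The label was checked first. All 8 endothelial markers (Pecam1, Cdh5, Kdr, Tie1, Tek, Esam, Emcn and Plvap) were above 0 in every isolation, and their summed FPKM was 19022 to 19606 at P5 and 26438 to 32020 at P30. Of these 8, 1 was called higher at P30 by the limits given below, Plvap (4692 ± 140.2 and 11590 ± 2515 FPKM, SD, n = 3). Kdr, Tie1, Esam and Emcn were also higher in every P30 isolation but were not called. Cdh5, which encodes VE-Cadherin, was lower in every P30 isolation (2971 ± 95.4 and 1885 ± 52.4), and Pecam1 and Tek overlapped between the ages. Markers of other cells were also present. The summed FPKM of 8 RPE markers was 69.0 to 174 at P5, where Rpe65 was listed at 0 in 2 of the 3 isolations, and 500.33 to 3856 at P30, with 5 of the 7 tested called higher at P30. That of 8 photoreceptor markers was 2.21 to 7.25 at P5, where Cnga1, Rcvrn and Pde6a were listed at 0 throughout, and 41.0 to 359 at P30, with 3 of the 5 tested called higher at P30. That of 7 pericyte markers was 497 to 1765 at P5 and 1872 to 6290 at P30, with 0 of 7 called. Of the smooth muscle markers 1 of 5 tested was called higher at P30, of the fibroblast markers 2 of 7, and of the pigment cell markers 0 of 5. The smooth muscle sums were 559 to 593 at P5 and 706 to 1451 at P30. The fibroblast sums were 406 to 835 at P5 and 1431 to 3196 at P30, and the pigment sums overlapped between the ages. Leukocyte markers differed in direction, with 2 of 7 called higher at P5 (Ptprc and Aif1) and 0 higher at P30. By sign alone 5 were lower at P30 and 2 were higher (Lyz2 and Cd14). Their sums overlapped, at 541 to 802 at P5 and 318 to 809 at P30. These are bulk samples, so a lower share of the cells that make an RNA and less of that RNA per cell cannot be told apart.

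A gene was tested where its mean FPKM was at least 5 in at least 1 age, and was called where its adjusted p was under 0.01 (limma on log2(FPKM + 1), Benjamini-Hochberg over all 12481 genes tested) and the mean FPKM + 1 differed at least 2-fold. Of the 51 genes, 29 were tested, 25 of them through both ages and 4 through 1 age only (Adamts12 at P5, and Adamts16, Adamtsl3 and Timp4 at P30). Of these 29, 8 were higher at P30, or 27.6%, against 5.89% of all genes tested, and 1 was higher at P5, or 3.45%, against 5.82% of all genes. The 8 were Timp2, Timp3, Timp4, Adamts1, Adamtsl2, Adamtsl4, Adamtsl5 and Mmp17, and the 1 was Mmp25. The 3 P30 isolations were all higher than the 3 P5 isolations in 9 of the 29, where this held for 22.0% of all genes, and the 3 P5 isolations were all higher in 7, where this held for 33.0%. The median log2 difference was 0.18 over the 29 genes and -0.10 over all genes tested. Leaving out any single P5 isolation reduced the genes higher at P30 to 5, with Adamtsl2 and Timp2 lost each time, Mmp17 lost without P5 replicate 1 or 2, and Adamts1 lost without P5 replicate 3. Mmp25 was lost in the same fits, so that none was then higher at P5. Over all genes, the fits without P5 replicate 1, 2 or 3 called 519, 404 and 396 higher at P30, in place of 735. They called 427, 291 and 297 higher at P5, in place of 726. Without P30 replicate 1 the genes higher at P5 were Mmp25 and Timp1, and without P30 replicate 2 they were Mmp2 and Mmp14.

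**Figure D1:**
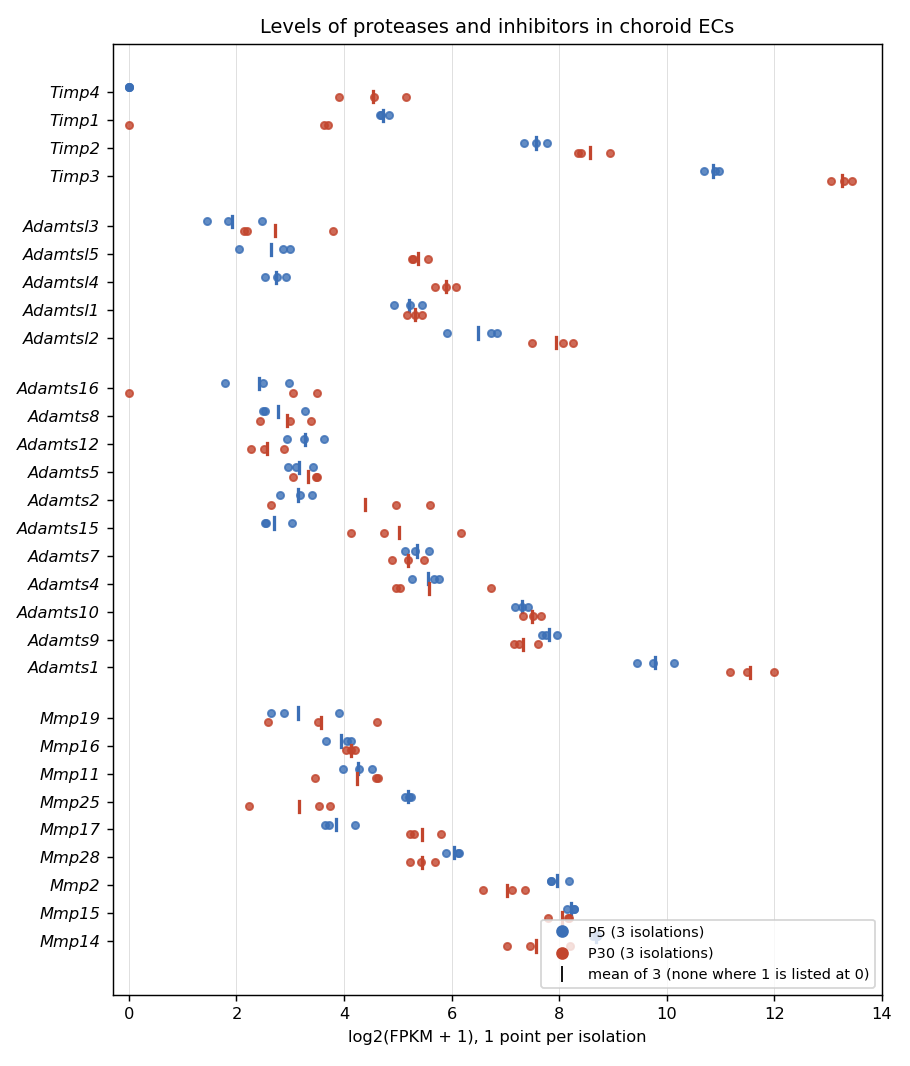
The x axis is log2(FPKM + 1), and each point is 1 isolation of the 29 genes tested, grouped by family and ordered by mean level, with P5 in blue, P30 in red and a bar at the mean of 3 where none is listed at 0. Timp3 and Adamts1 lie at the right of their families at both ages, and the P30 points of Timp2, Timp3, Timp4, Adamts1, Adamtsl2, Adamtsl4, Adamtsl5 and Mmp17 lie clear of their P5 points.

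By mean FPKM, Timp3 came first at both ages, followed by Adamts1, with no overlap between their isolations or with the next gene. At P5 Mmp14 came next, followed by Mmp15, Mmp2, Adamts9, Timp2 and Adamts10, each overlapping its neighbour in that order from Mmp15 on. At P30 Timp2 came next, followed by Mmp15, Adamtsl2, Mmp14, Adamts10, Adamts9 and Mmp2, again with each overlapping its neighbour from Mmp15 on.

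Among these genes the largest difference in FPKM was that of the inhibitor Timp3. Timp3 (chromosome 10, 85763117 to 85812251 of mm9, plus strand) had 2011, 1895 and 1656 FPKM in the P5 isolations, given here and below in the order of replicates 1 to 3, and 11146, 8468 and 10022 FPKM in the P30 isolations. The lowest P30 value was several times the highest P5 value, and the isolations of each age were close together. The mean rose from 1854 ± 181 (SD, n = 3) to 9879 ± 1345 (SD, n = 3), a 5.33-fold difference with a log2 fold change of 2.41 (SE 0.14, 95% confidence interval 2.07 to 2.74, limma adjusted p = 0.000111). Ranked by mean FPKM, Timp3 was number 49 of all 22026 genes at P5 and number 4 at P30. Its call was kept when any single isolation was left out, with a log2 fold change of 2.32 to 2.52. After quantile normalization, which gives every isolation the same distribution of values, the log2 fold change was 1.66 (limma adjusted p = 0.000418). RPE cells are also a known source of Timp3. The summed RPE markers were higher in every P30 isolation and differed 7.71-fold between the highest and the lowest of them, where Timp3 differed 1.32-fold. The part of RPE cells in the result was not tested.

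Timp2, a secreted inhibitor that also takes part with Mmp14 in the activation of pro-Mmp2, lies on chromosome 11 (118162383 to 118217054, minus strand). It had 218, 188 and 162 FPKM at P5 and 339, 492 and 324 at P30, so the ages did not overlap. The mean rose from 189 ± 28.0 to 385 ± 92.9 (SD, n = 3), just past the 2-fold limit (2.03-fold, log2 fold change 1.004 with SE 0.18, limma adjusted p = 0.00572). After quantile normalization the log2 fold change was 0.93, under the limit, and with no trend the adjusted p was 0.0155. Of the 6 fits that left out 1 isolation, only the one without P30 replicate 3 kept this call. Without P30 replicate 2, the highest, the log2 fold change was 0.81 and under the limit, and in the other 4 the adjusted p was between 0.0101 and 0.0290.

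Timp4 (chromosome 6, 115195634 to 115201867, minus strand), an inhibitor of restricted tissue range, was listed at 0 in all 3 P5 isolations and at 22.6, 14.1 and 34.5 FPKM at P30 (limma adjusted p = 0.000457). No fold is given against a group listed at 0. Timp1 (X chromosome, 20447292 to 20451861, plus strand), an inducible secreted inhibitor, had 24.7, 24.4 and 27.5 FPKM at P5, was listed at 0 in P30 replicate 1, and had 12.1 and 11.3 in P30 replicates 2 and 3. All P30 values were below all P5 values, but the difference did not pass the test (limma adjusted p = 0.0861). The isolation at 0 decided this, since without it Timp1 was called higher at P5, with a log2 fold change of -1.07 (limma adjusted p = 0.00487).

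Timp1, Timp3 and Timp4 each lie inside a synapsin gene (Syn1, Syn3 and Syn2) on the opposite strand. The library kit does not mark strand, so reads of a Timp gene and of its host cannot be told apart where they overlap. The hosts were low, with a highest value over the 6 isolations of 7.40 FPKM for Syn1, 11.7 for Syn2 and 4.22 for Syn3. Of the hosts, only Syn2 was high enough to be tested, and it was not called (limma adjusted p = 0.127). Syn3 was at 1.69 to 2.36 FPKM at P5 and at 2.58 to 4.22 at P30, higher in every P30 isolation. Syn2 had 11.7, 10.1 and 5.24 FPKM at P5 and 4.28, 4.44 and 5.08 at P30, while Timp4 within it was at 0 and then above it.

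Summed over its 4 genes, the Timp family went from 2069 ± 207 to 10295 ± 1263 FPKM (SD, n = 3), and Timp3 made up 89.6% of that sum at P5 and 95.8% at P30. Without Timp3 it came to 215 ± 26.7 at P5 and to 417 ± 88.1 at P30. The order of the inhibitors by mean FPKM was Timp3, Timp2, Timp1, Timp4 at P5 and Timp3, Timp2, Timp4, Timp1 at P30. Their ranges over isolations did not overlap between neighbours in either order.

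Most of the Mmp signal came from Mmp14, Mmp15 and Mmp2, which together made up 85.5% of the summed Mmp FPKM at P5 and 79.5% at P30. Mmp14, the membrane-anchored collagenase that activates pro-Mmp2, had 414, 395 and 414 FPKM at P5 and 130, 294 and 175 at P30. Every P30 isolation was lower, but they were spread widely, and the log2 difference of -1.11 (SE 0.26) did not pass the limit on adjusted p (0.0149 from limma). Without P30 replicate 2, the highest of that age, it was called higher at P5 (log2 fold change -1.43, limma adjusted p = 0.00155), and after quantile normalization it was called as well (-1.19, limma adjusted p = 0.00718).

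Mmp2, the gelatinase that cuts type IV collagen and denatured collagens, had 289, 230 and 228 FPKM at P5 and 139, 163 and 94.95 at P30. Its ages did not overlap either, with means of 249 ± 34.6 and 132 ± 34.6 (SD, n = 3), and its log2 difference of -0.93 (SE 0.21, limma adjusted p = 0.0113) missed both limits. Without P30 replicate 2 it was called higher at P5 (log2 fold change -1.10, limma adjusted p = 0.00841). Mmp15, a membrane-type enzyme like Mmp14, had 307, 308 and 280 FPKM at P5 and 285, 219 and 291 at P30. These overlapped, and the interval of the log2 difference, -0.48 to 0.12, held no 2-fold change (log2 difference -0.18, limma adjusted p = 0.300). Mmp28, a secreted enzyme also named epilysin, had 69.4, 68.1 and 58.6 FPKM at P5 and 50.7, 36.5 and 42.2 at P30, lower in every P30 isolation but by less than 2-fold (log2 difference -0.60 with SE 0.16, limma adjusted p = 0.0215). It shares 465 bases with 1700020L24Rik on the other strand, which had 57.3 to 68.0 FPKM at P5 and 17.3 to 39.6 at P30, so its values are uncertain to that extent.

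Mmp17 and Mmp25 are the members of the membrane type that are attached through a lipid anchor (glycosylphosphatidylinositol) in place of a transmembrane segment, and they were called in opposite directions. Mmp17 (chromosome 5, 130090089 to 130114086, plus strand) had 11.6, 12.1 and 17.5 FPKM at P5 and 36.6, 38.4 and 55.0 at P30, with every P30 isolation higher. The mean rose 3.16-fold, from 13.7 ± 3.26 to 43.3 ± 10.2 (SD, n = 3; log2 fold change 1.59 with SE 0.24, limma adjusted p = 0.00241). The call was lost without P5 replicate 1 (limma adjusted p = 0.0125) and without P5 replicate 2 (0.0157).

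Mmp25, an enzyme known from neutrophils, lies on chromosome 17 (23766425 to 23782236, minus strand) and had 33.9, 36.2 and 36.9 FPKM at P5 against 3.71, 10.6 and 12.4 at P30. The P5 isolations were nearly equal and the P30 isolations were all lower. The mean was 35.6 ± 1.54 at P5 and 8.90 ± 4.59 at P30 (SD, n = 3), 4.01-fold higher at P5 (log2 fold change -2.02 with SE 0.39, limma adjusted p = 0.00653). The call was lost without any single P5 isolation or without P30 replicate 2, with an adjusted p of 0.0116 to 0.0338. Of the 7 leukocyte markers, 2 were called higher at P5 and 5 were not called, and their sums overlapped between the ages. The part of leukocytes in the result was not tested.

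Mmp11 (stromelysin-3) had 21.9, 18.5 and 14.7 FPKM at P5 and 10.1, 23.9 and 23.1 at P30, which overlapped (limma adjusted p = 0.956). It shares 2153 bases with Chchd10 on the other strand, a gene that went from 1.58 to 3.90 FPKM at P5 to 20.9 to 63.5 at P30. Mmp16 and Mmp19, the other members of the family that were tested, were not called. Summed over all 23 genes, Mmp FPKM was 1116 ± 49.3 at P5 and 750.2 ± 63.0 at P30 (SD, n = 3), 0.672 of the P5 value. The membrane-type enzymes went from 770.1 ± 11.0 to 533 ± 54.0 and the secreted enzymes from 346 ± 38.5 to 217 ± 26.4, in each case with every P30 isolation below every P5 isolation.

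Of the Mmp genes, 10 lie side by side on chromosome 9, within 427.1 kb from 7272514 to 7699585 of mm9 (Mmp13, Mmp12, Mmp1b, Mmp3, Mmp1a, Mmp10, Mmp8, Mmp27, Mmp20 and Mmp7). They include the interstitial collagenases, the stromelysins Mmp3 and Mmp10, and matrilysin (Mmp7), many of which are induced in wounds and inflammation. None of the cluster was high enough to be tested. Of these, 6 were listed at 0 in all 6 isolations, and the highest value was 5.80 FPKM, of Mmp13 in P30 replicate 1. The other Mmp genes that were not tested, Mmp9, Mmp21, Mmp23 and Mmp24, reached at most 4.76 FPKM.

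Promoter motifs of the cluster and of the other genes were compared as a description. RefSeq promoter windows (GRCm38.p6) were matched for 36 of the 51 genes, and the 250 bases before the gene start were searched on both strands for 3 motifs. The AP-1 site was searched as TGACTCA, the TATA box as TATAAA and the GC box as GGGCGG. None of the 3 motifs contains another. An AP-1 site was found in 7 of the 10 cluster genes, in 0 of the 26 others, and in 4.46% of all 32851 windows. A TATA box was found in 7 of the 10 and 3 of the 26, against 12.4% of all windows, and a GC box in 0 of the 10 and 20 of the 26, against 32.7%. These are matches of letters, with no measurement of binding. From the cluster, 3 promoters with an AP-1 site and a TATA box are shown, each the 150 bases before the start, 5′ to 3′ along the gene, with AP-1 sites and TATA boxes in capitals. They lie on the plus strand of mm9 at chr9:7463991-7464140 (Mmp1a), chr9:7502192-7502341 (Mmp10) and chr9:7272364-7272513 (Mmp13). Mmp1a and Mmp10 were listed at 0 in every isolation.
Mmp1a: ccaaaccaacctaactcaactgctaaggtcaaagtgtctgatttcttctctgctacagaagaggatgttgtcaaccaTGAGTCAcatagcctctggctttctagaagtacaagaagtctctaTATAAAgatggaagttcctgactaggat
Mmp10: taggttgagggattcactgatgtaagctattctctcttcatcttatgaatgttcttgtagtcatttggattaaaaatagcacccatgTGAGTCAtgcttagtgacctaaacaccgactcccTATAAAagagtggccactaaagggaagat
Mmp13: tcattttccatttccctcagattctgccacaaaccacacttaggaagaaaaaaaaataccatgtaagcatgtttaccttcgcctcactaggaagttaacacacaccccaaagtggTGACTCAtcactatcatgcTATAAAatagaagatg

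For contrast, 3 promoters of genes called between the ages are shown in the same way, with GC boxes and TATA boxes in capitals. They lie at chr16:85803359-85803508 (Adamts1, minus strand), chr3:95491841-95491990 (Adamtsl4, minus strand) and chr17:23782237-23782386 (Mmp25, minus strand). Adamts1 and Adamtsl4 were higher at P30 and Mmp25 was higher at P5, and all 3 have a GC box on 1 strand or the other. None was found in the window of Timp4, also a called gene. That window ends 357 bases before the annotated mm9 start of Timp4, where the 3 shown end 1 base before theirs.
Adamts1: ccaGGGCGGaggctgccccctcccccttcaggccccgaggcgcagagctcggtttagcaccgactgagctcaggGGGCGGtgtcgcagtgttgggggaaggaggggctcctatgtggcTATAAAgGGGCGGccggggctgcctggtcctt
Adamtsl4: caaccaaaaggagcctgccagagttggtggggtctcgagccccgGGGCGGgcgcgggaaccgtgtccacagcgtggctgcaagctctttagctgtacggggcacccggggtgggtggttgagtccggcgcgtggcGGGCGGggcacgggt
Mmp25: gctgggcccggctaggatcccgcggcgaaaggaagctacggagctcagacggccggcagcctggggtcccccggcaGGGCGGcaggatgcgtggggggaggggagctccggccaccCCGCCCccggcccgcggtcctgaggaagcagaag

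Of the 11 ADAMTS proteases tested, 1 was called, Adamts1, a share of 9.09% beside the 5.89% of all genes. It is a secreted protease for versican and aggrecan that also binds VEGF, and lies on chromosome 16 (85794072 to 85803358, minus strand). It had 1117, 699 and 850.3 FPKM at P5 and 2862, 4053 and 2321 at P30, with no overlap between the ages. The mean rose 3.46-fold, from 889 ± 211 to 3079 ± 886 (SD, n = 3; log2 fold change 1.78 with SE 0.24, limma adjusted p = 0.00168), and its rank among all genes went from 191 to 30. Without P5 replicate 3 the adjusted p was 0.0121. Adamts5, a related aggrecan-cutting enzyme, lies 55.1 kb from it, and had 6.79 to 9.71 FPKM at P5 and 7.24 to 10.2 at P30.

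Adamts1 made up 62.8% of the summed FPKM of the 19 ADAMTS proteases at P5 and 85.0% at P30. That sum was 1405 ± 259 at P5 and 3613 ± 987 at P30 (SD, n = 3), and without Adamts1 it was 516 ± 50.1 and 534 ± 101, with overlapping isolations. Next in level came Adamts9, another versican-cutting enzyme, and Adamts10, which binds fibrillin. Adamts9 had 249, 215 and 205 FPKM at P5 and 192, 151 and 142 at P30, lower in each P30 isolation by less than 2-fold (log2 difference -0.47 with SE 0.14, limma adjusted p = 0.0364). It shares 3124 bases with 9530026P05Rik on the other strand, which had 0 to 3.26 FPKM at P5 and 13.0 to 22.8 at P30. Adamts9 also overlaps A730049H05Rik and Gm15737 on that strand, for which no FPKM is listed. Adamts10 had 170.1, 157 and 144 FPKM at P5 and 182, 200.3 and 159 at P30, which overlapped (log2 difference 0.20 with SE 0.12, limma adjusted p = 0.233).

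Adamts15 and Adamts2 had large differences that did not pass the test. Adamts15, a proteoglycan-cutting enzyme, had 7.15, 4.77 and 4.84 FPKM at P5 and 16.6, 71.3 and 25.9 at P30. Every P30 isolation was higher, but P30 replicate 2 stood far above the others (log2 difference 2.32 with SE 0.50, limma adjusted p = 0.0102). It was called without P30 replicate 1 (adjusted p = 0.00534) and without P30 replicate 2 (adjusted p = 0.00971), both from limma. Adamts2, which removes the amino-terminal propeptide of fibrillar procollagens, had 8.04, 6.05 and 9.65 FPKM at P5 and 5.23, 47.2 and 30.1 at P30. P30 replicate 1 lay below the P5 values and the other P30 isolations well above (log2 difference 1.26 with SE 0.70, limma adjusted p = 0.188), and without it Adamts2 was called higher at P30 (log2 fold change 2.14, limma adjusted p = 0.00299).

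Adamts7, an enzyme known to cut COMP, had 47.0, 39.1 and 34.2 FPKM at P5 and 28.7, 35.5 and 43.7 at P30, which overlapped (limma adjusted p = 0.543). It shares 6025 bases with Tbc1d2b on the other strand, at 206 to 266 FPKM. Adamts4, Adamts5, Adamts8, Adamts12 and Adamts16 were tested and not called. Adamts13, the plasma enzyme for von Willebrand factor, was listed at 0 in all isolations, and the other 7 ADAMTS genes that were not tested (Adamts3, Adamts6, Adamts14, Adamts17, Adamts18, Adamts19 and Adamts20) reached at most 3.66 FPKM.

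**Figure D2:**
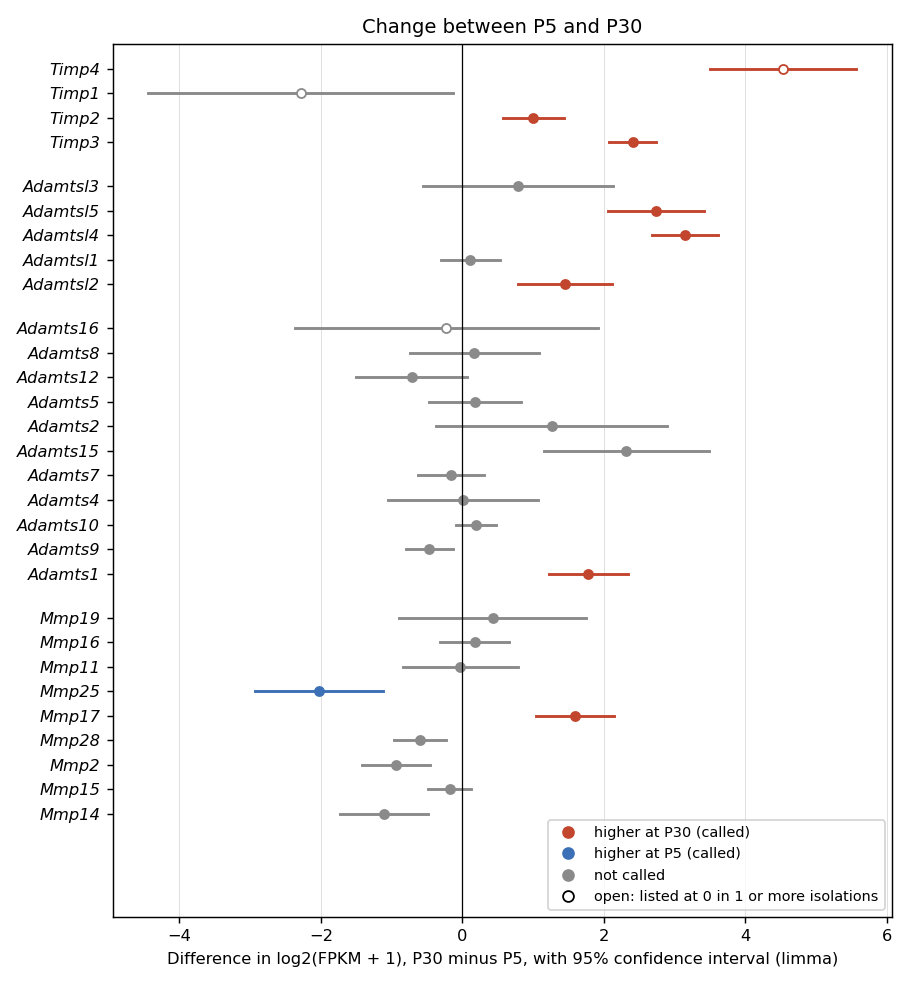
The x axis is the difference in log2(FPKM + 1) between ages, P30 minus P5, for each of the 29 genes tested, with its 95% confidence interval from limma, red where called higher at P30, blue where called higher at P5 and grey where not called. Open points have at least 1 isolation listed at 0, for which the position depends on the pseudocount. Among the filled points, the intervals of Timp3, Adamtsl4 and Adamtsl5 lie wholly above 2, as does that of the open point of Timp4.

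All 5 ADAMTS-like genes were tested and 3 of them were higher at P30, where 5.89% of all genes were. Adamtsl4, which binds fibrillin microfibrils and whose loss causes displacement of the lens, had 6.61, 4.79 and 5.76 FPKM at P5 and 58.5, 66.6 and 50.5 at P30 (chromosome 3, 95480124 to 95491840, minus strand). The isolations of each age were close and far from those of the other age. The mean rose 10.2-fold, from 5.72 ± 0.911 to 58.5 ± 8.02 (SD, n = 3; log2 fold change 3.15 with SE 0.20, limma adjusted p = 0.000130).

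Adamtsl5, a further microfibril-binding protein (chromosome 10, 79801855 to 79811157, minus strand), had 7.02, 3.15 and 6.25 FPKM at P5 and 38.0, 37.5 and 46.5 at P30, with every P30 isolation higher. It rose 7.43-fold, from 5.47 ± 2.05 to 40.7 ± 5.03 (SD, n = 3; log2 fold change 2.74 with SE 0.29, limma adjusted p = 0.000627). The calls of Adamtsl4 and Adamtsl5 were kept when any single isolation was left out. Adamtsl2, which binds a latent TGF-β binding protein and is mutated in geleophysic dysplasia, was the highest of the 5 genes (chromosome 2, 26934899 to 26964501, plus strand). It had 114, 106 and 59.3 FPKM at P5 and 306, 180.3 and 268 at P30, with no overlap (2.71-fold, log2 fold change 1.45 with SE 0.29, limma adjusted p = 0.00742). Its call was kept in 1 of the 6 fits that left out 1 isolation, the one without P30 replicate 2, and the adjusted p was 0.0145 to 0.0212 in the other 5. Adamtsl1 and Adamtsl3 were not called. The summed FPKM of the 5 genes was 143 ± 30.3 at P5 and 396 ± 59.1 at P30 (SD, n = 3).

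Set side by side, the families moved apart in level. The ratio of the summed Timp FPKM to the summed Mmp FPKM was 1.92, 1.92 and 1.71 in the P5 isolations and 16.6, 11.0 and 14.1 in the P30 isolations. The P30 ratios were all above the P5 ratios, with means of 1.85 ± 0.122 and 13.9 ± 2.80 (SD, n = 3). Without Timp3 the ratio was 0.192 ± 0.0158 at P5 and 0.552 ± 0.0713 at P30, again without overlap. Against the summed ADAMTS proteases, which were also higher at P30, the Timp ratio was 1.496 ± 0.243 at P5 and 3.03 ± 0.979 at P30. The 51 genes together took 0.323% of all FPKM at P5 and 0.915% at P30. Most of that rise lay in Timp3 and Adamts1. The summed FPKM of the 51 genes was 4733 at P5 and 15054 at P30, of which Timp3 held 1854 and 9879 and Adamts1 889 and 3079. The ratios and shares are of RNA levels and were not tested, as a score over chosen genes.

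**Figure D3:**
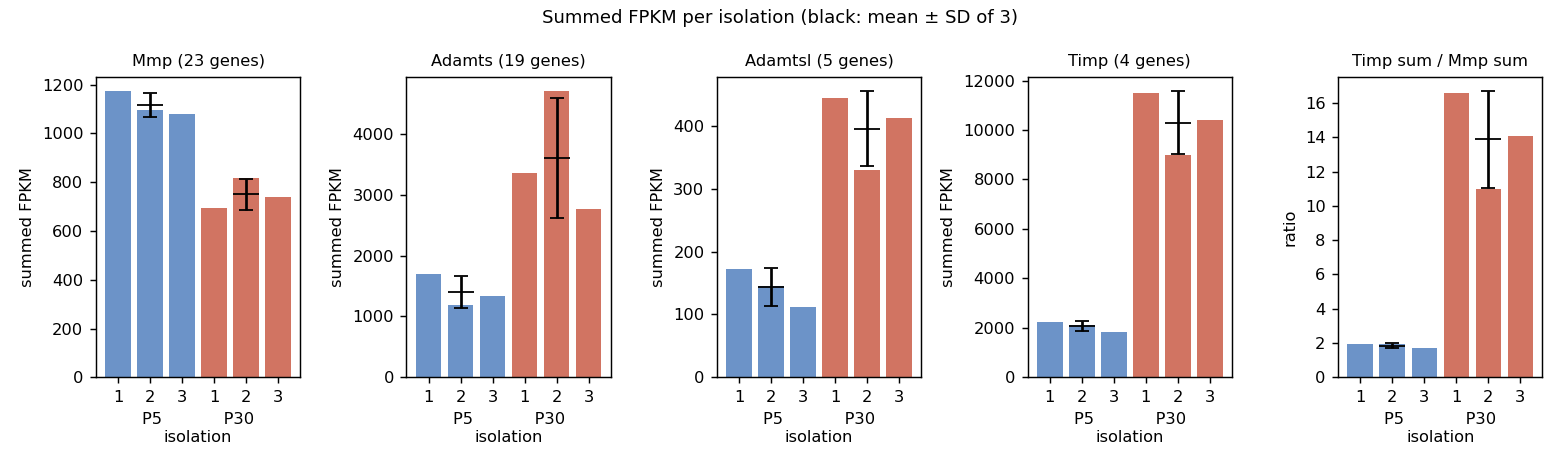
Bars give the summed FPKM of each family in each isolation (P5 blue, P30 red), and the last panel gives the ratio of the Timp sum to the Mmp sum, with the mean and SD of 3 isolations in black. The Mmp bars are lower at P30, those of the other families are higher, and the ratio is 1.71 to 1.92 at P5 and 11.0 to 16.6 at P30.

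The P30 isolations differed from each other more than the P5 isolations did. The median SD of log2(FPKM + 1) over the 29 genes was 0.25 at P5 and 0.396 at P30, and 23 of them, or 79.3%, had the larger SD at P30, against 77.8% of all genes tested. Of the 27 genes above 0 in every P30 isolation, 6 differed more than 3-fold between the highest and the lowest of them (Adamts2, Adamts4, Adamts15, Adamtsl3, Mmp19 and Mmp25), and Timp1 and Adamts16 were listed at 0 in 1 P30 isolation. Summed pericyte and fibroblast markers ranked P30 replicate 2 first, then 3, then 1. That order was shown by 5 of the 29 genes, or 17.2% (Adamts2, Adamts15, Mmp11, Mmp14 and Timp1), against 25.9% of all genes tested. Summed RPE, photoreceptor and pigment cell markers ranked replicate 1 first, then 2, then 3, an order shown by 3 of the 29, or 10.3% (Adamts8, Adamts9 and Adamts16), against 18.7% of all genes. The order of the smooth muscle markers, replicate 2, then 1, then 3, was shown by 7 genes, or 24.1% (Timp2, Adamts1, Adamtsl4, Adamts4, Adamts10, Adamtsl1 and Mmp2), against 19.7% of all genes. That of the leukocyte markers, replicate 1, then 3, then 2, was shown by 4 genes, or 13.8% (Timp3, Adamtsl2, Mmp16 and Mmp28), against 10.8%. That of the summed endothelial markers, replicate 3, then 1, then 2, was shown by 3 genes, or 10.3% (Timp4, Adamtsl5 and Mmp15), against 8.18%. Plvap weighs heavily in this order, with 12092, 8862 and 13816 FPKM at P30 within sums of 31427, 26438 and 32020. Kdr had the same order, but Tie1 and Esam had that of the leukocyte markers. Pecam1, Cdh5 and Emcn had the order of the RPE markers, and Tek that of the smooth muscle markers. The part of other cells in each result was not tested.

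**Figure D4:**
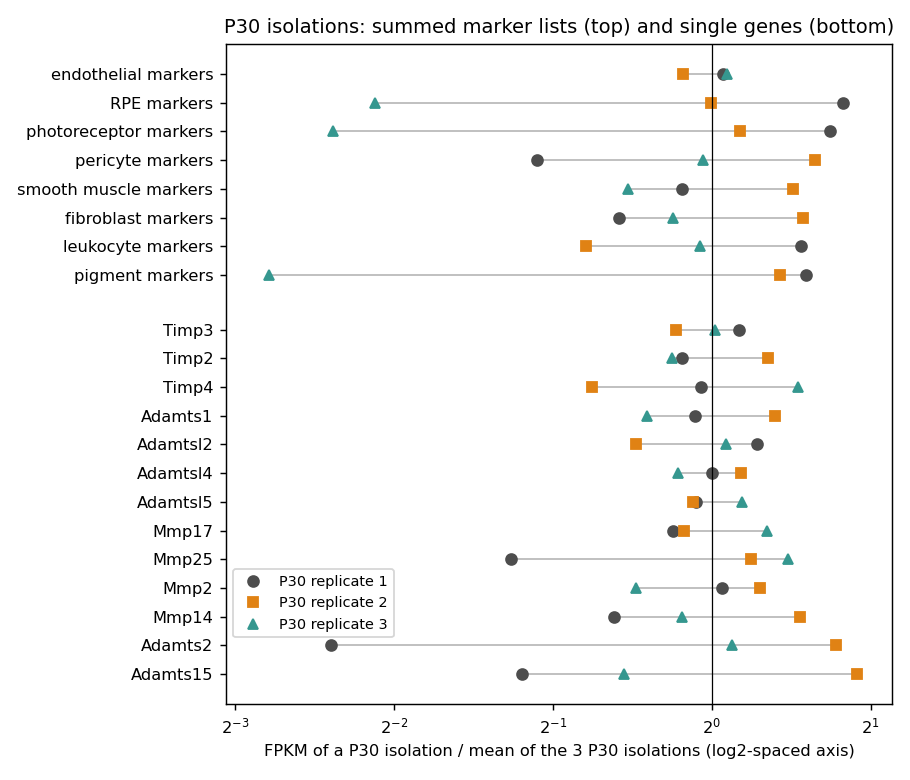
The x axis, spaced in log2, is the FPKM of each P30 isolation divided by the mean of the 3 P30 isolations, for 8 summed marker lists and for 13 single genes, with 1 symbol per isolation. RPE, photoreceptor and pigment markers are lowest in replicate 3 and pericyte markers highest in replicate 2. Between highest and lowest isolation, every gene shown except Adamts2 and Adamts15 differs less than the pericyte and RPE lists, Mmp25 only barely. The endothelial list differs least.

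Other genes of extracellular proteolysis changed in both directions. Of 39 such genes (the plasminogen system, procollagen proteinases, cathepsins, ADAM proteases and others), 31 were tested, 5 were higher at P30, or 16.1%, and 4 were higher at P5, or 12.9%, against the 5.89% and 5.82% of all genes. Leaving out any single P5 isolation or P30 replicate 2 reduced the first count to 2, and leaving out any single P5 isolation or P30 replicate 3 reduced the second to 1. Plaur, the receptor that holds urokinase at the cell surface, had 42.5, 43.3 and 50.4 FPKM at P5 and 429, 305 and 296 at P30 (log2 fold change 2.87, limma adjusted p = 9.24e-05). It was higher in every P30 isolation, as was Pcolce, an enhancer of procollagen C-proteinases (log2 fold change 1.41). Those proteinases went the other way, Tll1 with a log2 fold change of -1.33 and Bmp1 with -1.19, as did Adam19, a membrane protease, with -1.12. Plaur and Adam19 kept their calls when any single isolation was left out, and Pcolce, Tll1 and Bmp1 lost them in 5 of 6 such fits.

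Matrix proteins known as substrates of these enzymes were split as well. Of 36 listed, 31 were tested, with 4 higher at P30 (12.9%) and 5 higher at P5 (16.1%), shares to be read beside 5.89% and 5.82% over all genes, and a median log2 difference of 0.13 (-0.10 over all genes). The first count was 2 without P5 replicate 1 and 1 without P5 replicate 2 or 3, and the second was 3 without P5 replicate 2 or 3. Decorin (Dcn), a proteoglycan of fibrillar collagen, had 107, 66.5 and 152 FPKM at P5 and 854, 1439 and 819.8 at P30 (log2 fold change 3.27, limma adjusted p = 0.000497). Dcn is also a fibroblast marker, and the summed FPKM of 7 fibroblast markers was 406 to 835 at P5 and 1431 to 3196 at P30. Efemp1, an elastic fibre protein and an in vivo ligand of Timp3, had a log2 fold change of 2.91, and Col4a3, a type IV collagen chain of mature basement membranes, one of 2.80. The largest falls were those of Fbn2, the fibrillin of early tissues (-2.55), Col18a1, the source of endostatin (-2.07), and Lama4, the laminin chain of endothelial basement membrane (-1.45). Col18a1 had 1346, 1535 and 1022 FPKM at P5 and 378, 291 and 255 at P30, with no overlap. Dcn, Col18a1 and Lama4 kept their calls when any single isolation was left out, and Efemp1, Fbn2 and Col4a3 lost theirs in 4, 4 and 3 of the 6 fits.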

How the data were processed

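RNAseq libraries were made from sorted choroid ECs with a kit that does not mark strand (TruSeq RNA Sample Preparation Kit, per the labels). The authors mapped the reads on mm9 (TopHat, default settings) and deposited the FPKM that Cufflinks gave after GC and upper quartile normalization, 1 value per gene symbol and isolation, to 2 decimals. The submitters' processing notes also name CASAVA 1.8.2 and FastQC. Between 33.4% and 37.3% of genes are listed at 0, and no 2 samples held identical values. Low values showed no shared step (the fullest bin, 0.05 wide in log2, held 6.87% of ratios), so read counts and depth could not be recovered.

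FPKM values were tested with limma 3.58.1 in R 4.3.3 (empirical Bayes with a trend) on log2(FPKM + 1), over the 12481 of 22026 genes whose mean at either age reached an FPKM of 5, all 6 samples in 1 fit, after the fit had been tested on simulated data. Fold changes on this scale understate those of low genes, and the ratios given as n-fold are of mean FPKM. Ages and replicate numbers came from the labels. The numbers mark isolations of different animals and did not pair them (correlations of deviations -0.0618, -0.0905 and -0.0305). P-values measure the spread between pooled isolations.

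The genes, lists and limits were chosen with earlier results of these data known. Values are given for genes called, the Timp genes, the highest gene of each class where its mean FPKM is at least 5, genes not called that differed at least 2-fold, the 3 largest rises and falls among called genes of each of the 2 other lists, and the synapsin genes. Mmp15, Adamts5 and Adamts9 were added after their values were seen, and 1 gene that the rule picks is not reported here. Positions are from GENCODE vM1 (mm9), and promoter windows from RefSeq (GRCm38.p6) were placed on mm9 by exact match. Windows were not used here for Adamts4, Adamts5, Adamts6, Adamts7, Adamts8, Adamts10, Adamts15, Adamts16, Adamts19, Adamtsl1, Mmp2, Mmp9, Mmp16, Mmp17 and Mmp19. Tables were handled in Python 3.11.15 with pandas 2.3.3. The alternatives tried were pseudocounts of 0.1 and 5, a minimum FPKM of 1, of 10 or none, quantile normalization, no trend, a replicate block, an adjusted p under 0.05, and each isolation left out in turn.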

Additional observations from a re-analysis of the deposited data

How the results depend on the processing

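With 3 pooled isolations per age and unknown depth, values of a few FPKM carry a counting error that cannot be stated, and a gene listed at 0 may be low or a failed estimate. Timp3, Timp4, Adamtsl4 and Adamtsl5 kept their calls under all 15 alternatives, but the log2 fold change of Timp3 was 1.66 after quantile normalization in place of 2.41, and those of Adamtsl5 and Col4a3 were 2.14 and 1.92 with a pseudocount of 5 in place of 2.74 and 2.80. The count of proteases and inhibitors higher at P30, 8, was 6 with no trend (Adamtsl2 and Timp2 lost), 7 with no filter on low values (Adamtsl2 lost), 8 after quantile normalization (Timp2 lost, Adamts15 gained), 9 with a minimum FPKM of 10 or an adjusted p under 0.05 (Adamts15 gained), and 5 to 8 when 1 isolation was left out, and the count higher at P5, 1, was 0 with no filter on low values, 0 with no trend, 2 after quantile normalization, 2 at an adjusted p under 0.05 and 0 to 2 when 1 isolation was left out. With the replicate block it was 7 and 1, Adamtsl2 being lost (limma adjusted p = 0.0110), and 585 and 524 over all genes. Over all genes, 735 were higher at P30 (1130 at an adjusted p under 0.05, 396 to 849 with 1 isolation left out) and 726 at P5 (291 to 754). The genes of proteolysis higher at P30, 5, were 13 at an adjusted p under 0.05 and 2 to 7 with 1 isolation left out, and those higher at P5, 4, were 1 with the replicate block and 1 to 4 with 1 isolation left out. The substrates higher at P30, 4, were 2 with no trend and 1 to 4 with 1 isolation left out, and those higher at P5, 5, were 3 to 7. Mmp11, not called, had a log2 difference of 0.0353 after quantile normalization and of -0.23 to 0.36 with 1 isolation left out. With a minimum FPKM of 1, 8 of 40 genes, or 20.0%, had the order shared by the RPE, photoreceptor and pigment cell markers, against 18.5% of all genes. The Timp to Mmp ratio after quantile normalization, an alternative chosen after seeing the data, was 2.09 at P5 and 10.03 at P30. The cause of these shifts was not tested. The fits that left 1 isolation out also had fewer samples, and the part of this was not tested either. Over the 31 genes that the rule picks, 384 of 464 alternative values kept direction and call, 66 lost the call, 11 gained it and 3 changed sign.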
